A study of Mus musculus with 9 samples.

Results

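Expression of 9 genes of the Wnt pathway was examined in mouse heart: the ligand gene Wnt5a, the secreted Wnt antagonist genes Sfrp1, Sfrp2, Sfrp5, Frzb, Dkk2, Dkk3 and Wif1, and Axin2. They are 9 of the 16873 genes in the 9 expression files, found by Entrez gene ID, and were selected on their measured values in these same libraries. Their values, ratios and differences between groups are therefore given as a description with no test. Axin2 encodes an intracellular scaffold and not a secreted protein, so it is described apart from the ligands and antagonists.

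RNA was sequenced from hearts in 3 groups of 3 libraries. The WT saline group had a wild-type genotype and saline, the WT DOX group a wild-type genotype and doxorubicin (DOX), a chemotherapy agent of the anthracycline class with known toxicity to heart muscle, and the Sting-/- DOX group lacked Sting and received the same drug. STING is the adaptor that links the DNA sensor cGAS to interferon and inflammatory genes. According to the design text the drug was given at low dose to produce chronic cardiotoxicity; dose, time, age, sex, strain and the kind of Sting allele are not given in the sources used here. No untreated Sting-/- library was analysed here, so the effect of the genotype without the drug cannot be told apart from its effect under the drug. Whether the libraries of a group are from different animals is not stated in the labels; p-values therefore reflect the spread among these samples, and that spread may be technical.

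Values are FPKM, that is, sequenced fragments divided by transcript length and by the library's mapped total, which can be compared between genes per unit length. Sting1, the gene of STING, was at 5.10, 5.43 and 5.93 FPKM in WT saline, at 17.49, 17.96 and 17.76 in WT DOX, and at 0.06, 0 and 0 in Sting-/- DOX. All 9 libraries thus matched their genotype label. Markers of heart muscle were high in every library. The cardiac troponin gene Tnni3 was at 5760 to 6186 FPKM in WT saline, 3573 to 3805 in WT DOX and, in Sting-/- DOX, 869.9 to 924.3. Mb, which skeletal muscle shares, was at 16230 to 16410, 9503 to 9700 and 1736 to 1803 FPKM in the same order. Depth was estimated from the steps of low values at about 11200000 to 11600000 fragments per library in WT saline, 12400000 to 13600000 in WT DOX and, for Sting-/- DOX, 8100000 to 8400000. The groups were far apart over the whole transcriptome. Of the 12485 genes that averaged 1 FPKM or more, 45.3% rose and 21.5% fell in WT DOX against WT saline, 54.1% rose and 29.7% fell in Sting-/- DOX against WT DOX, and 63.0% rose and 25.9% fell in Sting-/- DOX against WT saline (limma on log2(FPKM + 1), adjusted p under 0.05). The last 2 comparisons share the Sting-/- DOX libraries, the first 2 share the WT DOX libraries, and the first and the last share the WT saline libraries.

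Wnt ligands are secreted lipid-modified proteins that bind Frizzled receptors. Together with the co-receptors LRP5 and LRP6 they spare beta-catenin from a destruction complex built on Axin and APC, and beta-catenin then acts with TCF/LEF factors on target genes; other ligands, such as Wnt5a, mostly signal without beta-catenin. Sfrp proteins and Wif1 bind ligands outside the cell, whereas Dickkopf proteins such as Dkk2 bind the LRP co-receptors. In the adult heart the pathway is mostly quiet and is known for its return in fibroblasts, endothelial cells and muscle after injury.

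The stretch just before the transcription start is shown for Sfrp2, Frzb and Dkk2, which were all higher in Sting-/- DOX than in both other groups, and for Axin2, a widely used readout of beta-catenin activity that was not. The sequences are from RefSeq (GRCm38.p6), 250 bases each, read 5' to 3' on the gene's own strand; capitals mark the letters TATAAA. They lie at chr3:83766071-83766320 on the plus strand for Sfrp2, chr2:80447397-80447646 on the minus strand for Frzb, chr3:132085042-132085291 on the plus strand for Dkk2 and chr11:108920099-108920348 on the plus strand for Axin2.
Sfrp2: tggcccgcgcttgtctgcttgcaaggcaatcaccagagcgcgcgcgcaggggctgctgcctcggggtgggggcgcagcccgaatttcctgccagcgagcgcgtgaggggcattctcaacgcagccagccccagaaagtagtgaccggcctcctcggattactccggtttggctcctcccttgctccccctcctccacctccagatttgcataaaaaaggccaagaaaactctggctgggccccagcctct
Frzb: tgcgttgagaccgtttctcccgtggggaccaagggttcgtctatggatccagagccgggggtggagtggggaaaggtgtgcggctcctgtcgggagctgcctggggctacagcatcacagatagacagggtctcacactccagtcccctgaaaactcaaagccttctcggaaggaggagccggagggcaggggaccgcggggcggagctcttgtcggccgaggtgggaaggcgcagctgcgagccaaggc
Dkk2: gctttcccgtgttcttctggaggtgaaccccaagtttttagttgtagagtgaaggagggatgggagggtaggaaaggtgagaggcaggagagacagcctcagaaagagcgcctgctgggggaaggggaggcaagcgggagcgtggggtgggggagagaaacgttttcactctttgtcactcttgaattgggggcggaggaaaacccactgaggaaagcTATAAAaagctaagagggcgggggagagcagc
Axin2: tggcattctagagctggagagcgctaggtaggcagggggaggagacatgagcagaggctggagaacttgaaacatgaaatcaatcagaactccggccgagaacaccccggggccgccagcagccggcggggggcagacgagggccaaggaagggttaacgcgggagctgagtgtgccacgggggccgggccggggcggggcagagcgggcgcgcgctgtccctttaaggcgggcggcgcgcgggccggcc

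RefSeq's promoter table, which holds 250 bases before and 50 after each start, had 6 of the 9 genes: Sfrp2, Sfrp5, Frzb, Dkk2, Wif1 and Axin2. TATAAA began at position -32 from the start in the Dkk2 window and, on the other strand, at position -232 in the Wif1 window; 13.6% of all 32851 windows hold it on either strand. The TCF/LEF letters CTTTGAT, also in the forms CTTTGAA and further CTTTGTA and likewise CTTTGTT, searched on both strands, are in 16.9% of all windows and in none of these 6. The TEAD letters CATTCC are in 14.7% of all windows and likewise in none of the 6. No searched motif overlapped another in these windows. All 6 windows were richer in G and C than the median window of 52.7%, from 57.7% in Dkk2 and 61.3% in Sfrp5 to 66.0% in Sfrp2 and 70.0% in Axin2. CpG pairs numbered 11 in Dkk2, 15 in Sfrp5, 20 in Frzb, 22 in Sfrp2, 25 in Wif1 and 31 in Axin2, against a median of 7. These are matches of letters and show no binding.

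Sfrp2, Sfrp1 and Frzb, whose proteins share a Frizzled-like domain that binds Wnt ligands, followed the same order: lowest in WT saline, higher in WT DOX and far higher in Sting-/- DOX. Sfrp2 stood at 1.39, 1.15 and 1.21 FPKM in WT saline, at 4.66, 8.18 and 7.89 in WT DOX, and at 270.10, 258.85 and 255.79 in Sting-/- DOX. The 3 groups did not overlap. The ratio of group means was 5.53 for WT DOX to WT saline, 37.9 for Sting-/- DOX to WT DOX and 209 for Sting-/- DOX to WT saline. On the log2(FPKM + 1) scale, which understates changes of low genes, the differences were 1.78, 5.09 and 6.87, each with a standard error of 0.14. Ranked by this difference among 12485 genes, Sfrp2 was number 6 from the top in Sting-/- DOX against WT DOX and number 355 in WT DOX against WT saline.

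WT DOX replicate 1 had a lower Sfrp2 level than the other two libraries of its group. The same library was low for Ccn5, a secreted matricellular gene, at 10.93 FPKM against 17.17 and 16.04, and for adipocyte genes, with the hormone gene Adipoq at 1.81 against 9.79 and 6.55 and the lipid droplet gene Cidec at 0.54 against 3.26 and 1.69. The part of adipose tissue in the Sfrp2 value was not tested. Sfrp2 in this library was still above every WT saline library. Without it, the log2 difference of Sfrp2 between WT DOX and WT saline was 2.01 in place of 1.78.

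Sfrp1 stood at 3.68, 2.89 and 3.63 FPKM in WT saline, at 8.34, 8.46 and 8.43 in WT DOX, and at 127.33, 116.52 and 118.37 in Sting-/- DOX. Its WT DOX libraries lay close to each other, and the groups did not overlap. The log2 differences were 1.10, 3.69 and 4.79 (SE 0.070), or ratios of 2.47, 14.4 and 35.5 in the same order of comparisons. In WT saline Sfrp1 was the most abundant of the 9 genes, and in Sting-/- DOX it was second to Sfrp2.

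Frzb, also known as Sfrp3, stood at 1.29, 1.32 and 1.2 FPKM in WT saline, at 4.93, 5.0 and 5.24 in WT DOX, and at 33.65, 32.49 and 30.18 in Sting-/- DOX. Its WT saline level equalled that of Sfrp2 within the spread, at 1.27 ± 0.062 against 1.25 ± 0.12 FPKM (SD, n = 3). The ratio to WT saline was then 3.98 in WT DOX and 25.3 in Sting-/- DOX for Frzb. Log2 differences were 1.42, 2.45 and 3.87 (SE 0.060), and the groups did not overlap.

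Sfrp5, the antagonist best known from fat tissue, was low throughout. It stood at 0.43, 0.61 and 0.52 FPKM in WT saline, at 0.48, 0.29 and 0.33 in WT DOX, and at 1.34, 1.37 and 1.13 in Sting-/- DOX. WT saline and WT DOX overlapped, whereas every Sting-/- DOX library was above both. The Sting-/- DOX mean was 3.49 times the WT DOX mean, a log2 difference of 0.74 (SE 0.074). At this depth the values stand for about 7 to 13 fragments in the wild-type libraries and 17 to 22 in Sting-/- DOX.

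**Figure D1:**
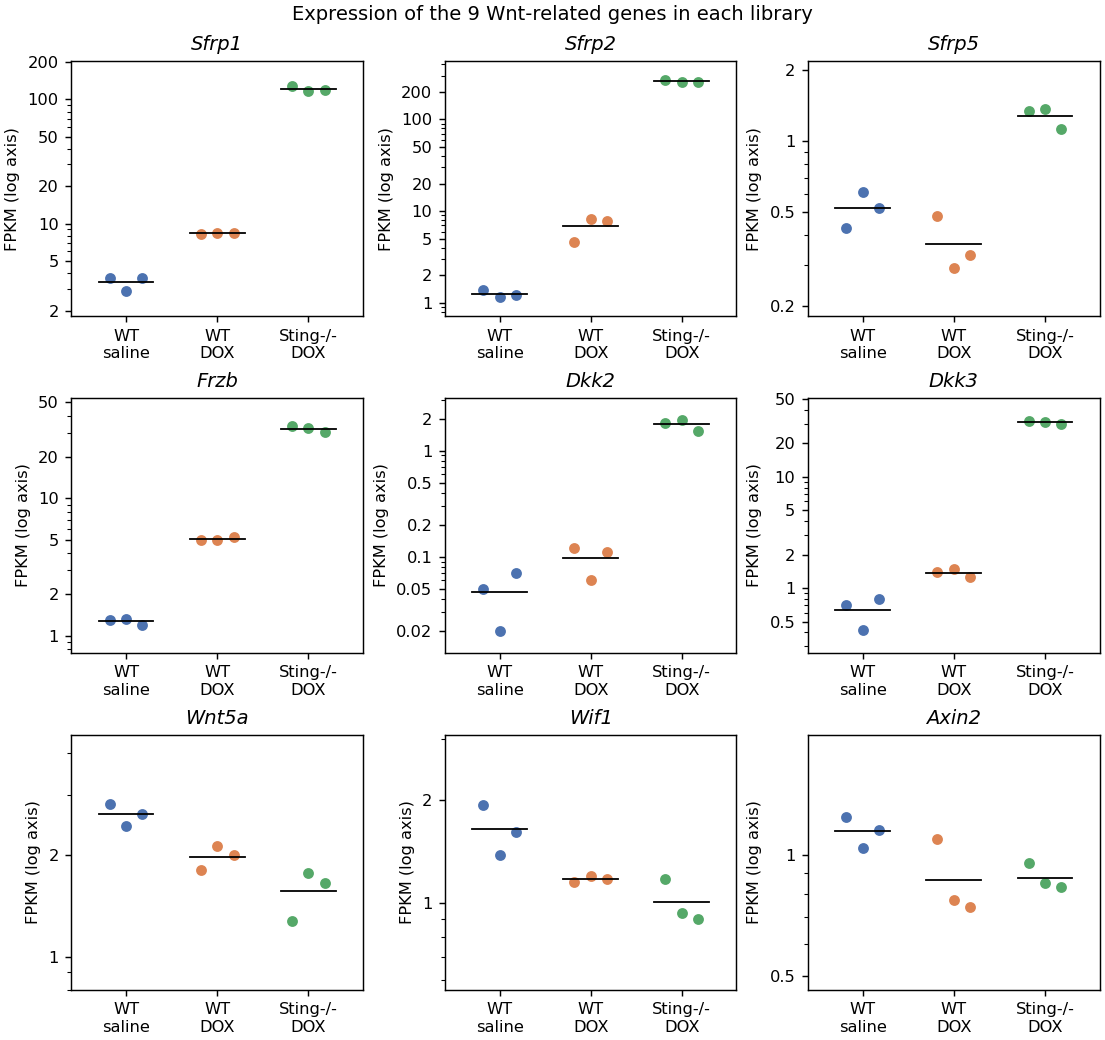
FPKM of each of the 9 genes in each library, on a log axis with its own range per panel; each point is a library and each line the mean of the 3 libraries of a group. Sfrp1, Sfrp2, Frzb and Dkk3 are higher in WT DOX than in WT saline and higher again in Sting-/- DOX without overlap, Sfrp5 and Dkk2 are higher only in Sting-/- DOX by non-overlap, and Wnt5a, Wif1 and Axin2 have their highest mean in WT saline.

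The Dickkopf genes differed in level. Dkk3, a divergent family member whose action on Wnt signalling is less settled, stood at 0.70, 0.42 and 0.80 FPKM in WT saline, at 1.39, 1.48 and 1.27 in WT DOX, and at 31.94, 30.76 and 29.65 in Sting-/- DOX. The groups did not overlap, and the Sting-/- DOX level, 30.8 ± 1.15 FPKM, lay within the spread of that of Frzb, 32.1 ± 1.77 (SD, n = 3). Log2 differences were 0.54, 3.74 and 4.28 (SE 0.088), and the ratio of Sting-/- DOX to WT DOX was 22.3.

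Dkk2, which binds LRP6 and can block or weakly activate the pathway depending on context, was barely detected in wild-type hearts. It stood at 0.05, 0.02 and 0.07 FPKM in WT saline, at 0.12, 0.06 and 0.11 in WT DOX, and at 1.81, 1.96 and 1.53 in Sting-/- DOX. These are about 1 to 3, 3 to 6 and 46 to 60 fragments per library, so the wild-type groups, which overlap, could not be separated at this depth. The Sting-/- DOX mean was 18.3 times the WT DOX mean, with a log2 difference of 1.33 (SE 0.062).

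Wif1, which captures ligands through its WIF domain, did not share this pattern. It stood at 1.93, 1.38 and 1.61 FPKM in WT saline, at 1.15, 1.2 and 1.18 in WT DOX, and at 1.18, 0.94 and 0.90 in Sting-/- DOX. Every WT saline library was above every DOX library, and the DOX groups overlapped. Log2 differences were -0.27, -0.12 and -0.39 (SE 0.099).

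Wnt5a, the only ligand among the 9, was ordered in reverse of the Sfrp genes. It stood at 2.84, 2.43 and 2.65 FPKM in WT saline, at 1.80, 2.13 and 2.0 in WT DOX, and at 1.28, 1.77 and 1.65 in Sting-/- DOX. The groups did not overlap, although the highest Sting-/- DOX library, 1.77, was just under the lowest WT DOX library, 1.80. The log2 differences were -0.29, -0.22 and -0.51 (SE 0.093). The Sting-/- DOX mean was 0.593 times the WT saline mean.

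Axin2 stood at 1.24, 1.04 and 1.15 FPKM in WT saline, at 1.09, 0.77 and 0.74 in WT DOX, and at 0.95, 0.85 and 0.83 in Sting-/- DOX. The DOX groups had nearly the same mean, 0.867 ± 0.19 and 0.877 ± 0.064 (SD, n = 3), and WT DOX replicate 1 overlapped with WT saline. All Sting-/- DOX libraries were under all WT saline libraries, with a log2 difference of -0.19 (SE 0.079). The difference between the DOX groups was 0.012 and took the opposite sign, -0.139 and -0.271, when libraries were scaled by median ratios or made equal in distribution.

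**Figure D2:**
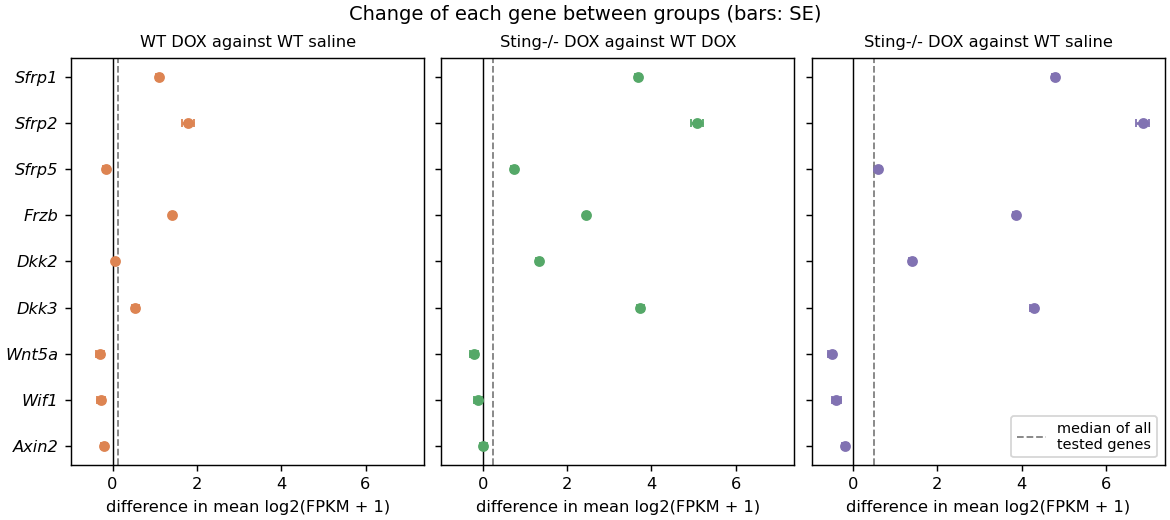
Difference in mean log2(FPKM + 1) for each gene in the 3 comparisons, with bars for the standard error, which are often smaller than the point, and a dashed line at the median of all tested genes. Sfrp2 has the largest difference in each panel, 1.78, 5.09 and 6.87, and Wnt5a and Wif1 lie left of 0 in all of them.

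Counted over the 9 genes, groups did not overlap for 4 higher and 2 lower genes in WT DOX against WT saline. Over all 16873 genes the shares were 39.5% higher and 19.8% lower. For Sting-/- DOX against WT DOX 6 genes were higher and 1 lower, against 48.7% and 24.4% of all genes. For Sting-/- DOX against WT saline 6 were higher and 3 lower, against 56.4% and 21.2%. The median difference of the 9 genes was 0.067, 1.33 and 1.40 on the log2 scale in these comparisons, beside 0.13, 0.25 and 0.49 for all tested genes. Because the genes were selected on these values, nothing is read from these counts. Of the 9 genes, 6 passed the filter of a mean of at least 1 FPKM (Sfrp1, Sfrp2, Frzb, Dkk3, Wnt5a and Wif1), and the standard errors of Sfrp5, Dkk2 and Axin2 come from the same fit without the filter.

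The median of all genes was itself above 0 and moved with the scaling, to -0.085, -0.049 and -0.016 with median ratios. Relative to the median of all genes as deposited, Sfrp1 differed by 0.97, 3.44 and 4.30, Frzb by 1.29, 2.2 and 3.37, Wnt5a by -0.42, -0.47 and -1.0, and Axin2 by -0.33, -0.24 and -0.69. The signs of the other 8 genes were the same under every scaling tried, in all comparisons.

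The summed level of the 14 Wnt ligand genes in the files was 10.4 ± 0.13 FPKM in WT saline, 9.67 ± 0.76 in WT DOX and 22.7 ± 0.63 in Sting-/- DOX (SD, n = 3). The summed level of 8 Sfrp, Dkk and Wif1 genes, the 7 described above and Sfrp4, was 8.85 ± 0.83, 23.5 ± 1.96 and 451.7 ± 15.4 FPKM. This sum was 0.854 ± 0.091, 2.44 ± 0.26 and 19.9 ± 0.40 times the ligand sum, and the groups did not overlap. The size of this ratio depends on which antagonists are counted: with Igfbp4 added, a choice made after its values were seen, it was 4.07 ± 0.34, 7.38 ± 0.59 and 28.9 ± 0.29. Sfrp2 supplied 14.1% of the sum of 8 genes in WT saline, 29.1% in WT DOX and 57.9% in Sting-/- DOX. The share of Sfrp1 was 38.3%, 35.9% and 26.7%. As these sums contain genes chosen on their values they are descriptive, and transcript sums say nothing of protein.

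**Figure D3:**
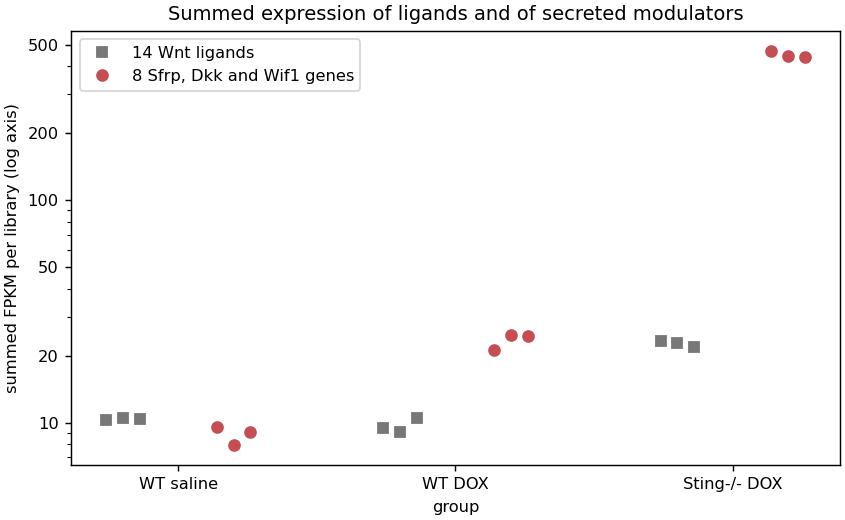
Summed FPKM per library, on a log axis, of the 14 Wnt ligand genes (squares) and of the 8 Sfrp, Dkk and Wif1 genes (circles). The ligand sum stays between 9.04 and 10.52 FPKM in the wild-type libraries and reaches 22.0 to 23.23 in Sting-/- DOX, whereas the sum of the 8 genes goes from 7.94 to 9.57 in WT saline to 440.9 to 469.4 in Sting-/- DOX.

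The other genes of the pathway were taken by role: 116 genes in 8 lists, of which 105 were in the files and 72 passed the filter. In WT DOX against WT saline 24 of the 72 rose, 17 fell and 31 did not pass, where 45.3% of all tested genes rose and 21.5% fell, with a median difference of 0.0051 on the log2 scale beside 0.13 for all genes. Rises made up 58.5% of these calls, and 67.8% of the calls over all genes. Both shares moved together with the scaling: with median ratios 14 pathway genes rose and 37 fell (27.5% rises, beside 41.2% over all genes), and with equal distributions 13 rose and 43 fell (23.2% beside 40.2%).

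Of the 72 genes, Wnt4, Rspo1, Fzd5, Ror2, Nkd1 and Nkd2 averaged under 1 FPKM in the wild-type libraries and passed the filter only through Sting-/- DOX. Their being higher there thus followed from the filter. For the Sting-/- DOX comparisons they are given one by one as values, with no test result, a choice made after seeing the data. They remain in the counts over all 72 genes and in the counts of WT DOX against WT saline. Over the other 66, 43 rose, 13 fell and 10 did not pass in Sting-/- DOX against WT DOX, or 65.2% and 19.7%. Of the 11950 tested genes that also averaged 1 FPKM or more in the wild-type libraries, 52.5% rose and 31.0% fell. Against WT saline 47 of the 66 rose, 11 fell and 8 did not pass, or 71.2% and 16.7%, beside 61.5% and 27.0% of the 11950. Genes over 1 FPKM in the wild-type libraries whose mean over all libraries fell under 1 through Sting-/- DOX are in neither set. Celsr1 and Znrf3 were such genes, both lower in Sting-/- DOX than in WT DOX without overlap, so these shares leave out some falls. All 72 genes, and so also the rises that followed from the filter, gave 49 and 13, beside 54.1% and 29.7% of all tested genes. Against WT saline these counts were 53 and 11, beside 63.0% and 25.9%. Between the DOX groups these 72 gave 40 rises and 21 falls under median ratios (65.6% rises, beside 46.7% over all genes) and 42 and 21 under equal distributions (66.7% beside 51.3%). Against WT saline they gave 39 and 24 (61.9% beside 49.0%) and then 43 and 25 (63.2% beside 51.6%). Wnt4, Rspo1, Fzd5, Ror2, Nkd1 and Nkd2 are among the rises under both scalings and in both comparisons. Counts under these scalings are not given for the other 66 genes. The scaled shares of the 72 therefore cannot show whether pathway genes rose more often than all genes.

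Wnt11, a noncanonical ligand of heart development, was at 2.51 to 2.70 FPKM in WT saline, 1.39 to 2.35 in WT DOX and, in Sting-/- DOX, 5.78 to 6.97. It fell by 0.38 in WT DOX against WT saline (SE 0.12, limma adjusted p = 0.0119), a call lost without WT DOX replicate 2, and rose by 1.39 in Sting-/- DOX against WT DOX (SE 0.12, limma adjusted p = 2.46e-07). In the latter comparison it was the only rise among the 3 ligands that reached the filter in the wild-type libraries. In Sting-/- DOX against WT saline Wnt5b rose too, by 0.35, a difference that was -0.03 with median ratios and -0.26 with equal distributions. Wnt4, known from kidney and reproductive tract development, stood at 0.31 to 0.52 FPKM in WT saline, 0.23 to 0.68 in WT DOX and, in Sting-/- DOX, 5.99 to 6.51. Porcn, which attaches the lipid to Wnt proteins, rose by 1.03 in Sting-/- DOX against WT DOX. Wls, which carries Wnt proteins to the cell surface, rose by 0.62 in WT DOX against WT saline and was at 30.2 FPKM in both DOX groups.

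Of the 11 other secreted modulators in the files 9 did not pass the filter. Igfbp4, an IGF-binding protein that also inhibits Wnt signalling at Frizzled and LRP6, was at 30.77 to 35.09, 47.23 to 47.90 and 198.8 to 208.0 FPKM. It rose by 0.50 in WT DOX against WT saline and by 2.08 in Sting-/- DOX against WT DOX (SE 0.048, limma adjusted p = 1.83e-12). Rspo1, an R-spondin that strengthens Wnt signalling, was at 0.22 to 0.64 FPKM in WT saline, 0.14 to 0.24 in WT DOX and, in Sting-/- DOX, 4.28 to 4.77.

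Among 19 tested receptors and co-receptors, 7 rose and 6 fell in WT DOX against WT saline, where 45.3% of all tested genes rose and 21.5% fell. Adgra2, a co-receptor of brain endothelium, rose by 1.02, Fzd2 by 0.95 and the receptor kinase-like Ptk7 by 0.67, whereas Fzd6 fell by 0.54, the R-spondin receptor Lgr6 by 0.42 and Fzd4 by 0.36. Between the DOX groups 13 of the 17 that reached the filter in the wild-type libraries rose in Sting-/- DOX and 3 fell. That was 76.5% and 17.6%, beside 52.5% and 31.0% of all genes filtered in this way. Fzd2 rose by 1.67 (SE 0.074, limma adjusted p = 6.08e-10), from a mean of 3.45 to 13.2 FPKM, and Fzd6 by 1.26. Ror2, a receptor of Wnt5a, was at 0.42 to 0.73 FPKM in WT DOX and, in Sting-/- DOX, 2.76 to 3.07. Fzd5 was at 0.64 to 0.94 FPKM in WT saline, 0.80 to 0.87 in WT DOX and, in Sting-/- DOX, 2.12 to 2.31. Kremen1, which binds Dickkopf proteins, fell by 1.05 (SE 0.051, limma adjusted p = 1.46e-09), from a mean of 29.2 to 13.6 FPKM, Lgr6 by 0.97 and Lgr4 by 0.78. Against WT saline 12 of the 17 rose and 4 fell in Sting-/- DOX, or 70.6% and 23.5%, beside 61.5% and 27.0% of all genes.

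In the cytoplasm, 4 of 18 tested genes rose and 3 fell in WT DOX against WT saline, beside 45.3% and 21.5% of all genes. All these differences were 0.28 or less on the log2 scale. The calls of the 3 largest rises, Axin1, Csnk1d and Csnk1a1, were lost with median ratios and with equal distributions. Between the DOX groups 10 rose and 5 fell in Sting-/- DOX, or 55.6% and 27.8%, near the 52.5% and 31.0% of all genes. Ctnnbip1, an inhibitor of the contact between beta-catenin and TCF factors, rose by 2.09 (SE 0.086, limma adjusted p = 3.27e-10), from 9.38 to 11.34 FPKM in WT DOX to 44.36 to 47.46 in Sting-/- DOX. Dvl1, a relay below Frizzled, rose by 1.38 and Ctnnb1, the gene of beta-catenin, by 0.74. Tnks, a tankyrase that marks Axin for degradation, fell by 1.39 (SE 0.060, limma adjusted p = 4.84e-10), Dvl3 by 0.27 and Apc by 0.19, the last lost when values were rescaled to TPM. In the nucleus 3 of 10 genes rose and 3 fell in WT DOX against WT saline. In Sting-/- DOX against WT DOX 6 rose and 1 fell, or 60% and 10%, beside 52.5% and 31.0% of all genes. The repressors Tcf7l1, Tle2 and Tle3 rose by 1.64, 1.44 and 1.34 in this comparison, and the coactivator Pygo1 fell by 0.38. The rises also took in Pygo2, a relative of Pygo1, by 1.18, Tcf7l2 by 1.21 and Tle1 by 1.16. Sting-/- DOX against WT saline had 9 rises and 3 falls in the cytoplasmic list and 8 rises and 2 falls in the nuclear list. Over all genes 61.5% rose and 27.0% fell there.

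Genes often used as targets or feedback readouts of beta-catenin differed among themselves. Of 9 tested in WT DOX against WT saline 7 rose and none fell, where 45.3% of all genes rose. Myc rose by 2.49 (SE 0.086, limma adjusted p = 2.48e-10), from 1.09 to 1.25 FPKM to 10.98 to 11.38, Cd44 by 2.12 and Ccn4 by 2.06, and these also respond to many other signals. The smallest rise, 0.22 for the cyclin gene Ccnd1, was -0.02 with median ratios and 0.04 with equal distributions. Tnfrsf19, too low to be tested, was at 0.82 to 0.95 FPKM in WT saline and at 0.33 to 0.44 in WT DOX, and Axin2 is given above.

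Between the DOX groups 5 of the 7 such genes that reached the filter in the wild-type libraries rose in Sting-/- DOX and 2 fell. That was 71.4% and 28.6%, beside 52.5% and 31.0% of all genes. Ccn5 rose by 3.55 (SE 0.13, limma adjusted p = 1.21e-10), whereas Myc fell by 0.88 and the pseudoreceptor gene Bambi by 0.39. All 7 rose against WT saline, where 61.5% of all genes rose. The count includes Bambi, whose sign turned with median ratios and with equal distributions. The feedback inhibitors Nkd2 and Nkd1, which bind Dishevelled, were at 0.90 to 1.18 and 0.35 to 0.56 FPKM in WT DOX and at 12.01 to 14.21 and 3.10 to 3.75 in Sting-/- DOX.

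The planar polarity and noncanonical list, the branch in which Wnt5a mostly acts, had 4 falls and no rise among 8 tested genes in WT DOX against WT saline, and 6 rises and 2 falls in Sting-/- DOX, whether against WT DOX or WT saline. Over all genes 45.3% rose and 21.5% fell in the first comparison. The shares were 52.5% and 31.0%, and then 61.5% and 27.0%, in the others. A further 5 genes of the list did not pass the filter and are outside these counts. Of them Celsr1 was lower in Sting-/- DOX than in both other groups without overlap, which took its mean over all libraries under 1 FPKM. Celsr2 and Celsr3 were lower in both DOX groups than in WT saline, Vangl2 was higher in Sting-/- DOX than in both other groups, and Ankrd6 overlapped throughout. Intu fell in WT DOX against WT saline and in Sting-/- DOX against WT DOX, by 0.80 and 1.13, and Daam1 by 0.32 and 0.70. Prickle1 fell by 0.46 in the former and rose by 1.43 in the latter (SE 0.057, limma adjusted p = 2.43e-10).

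**Figure D4:**
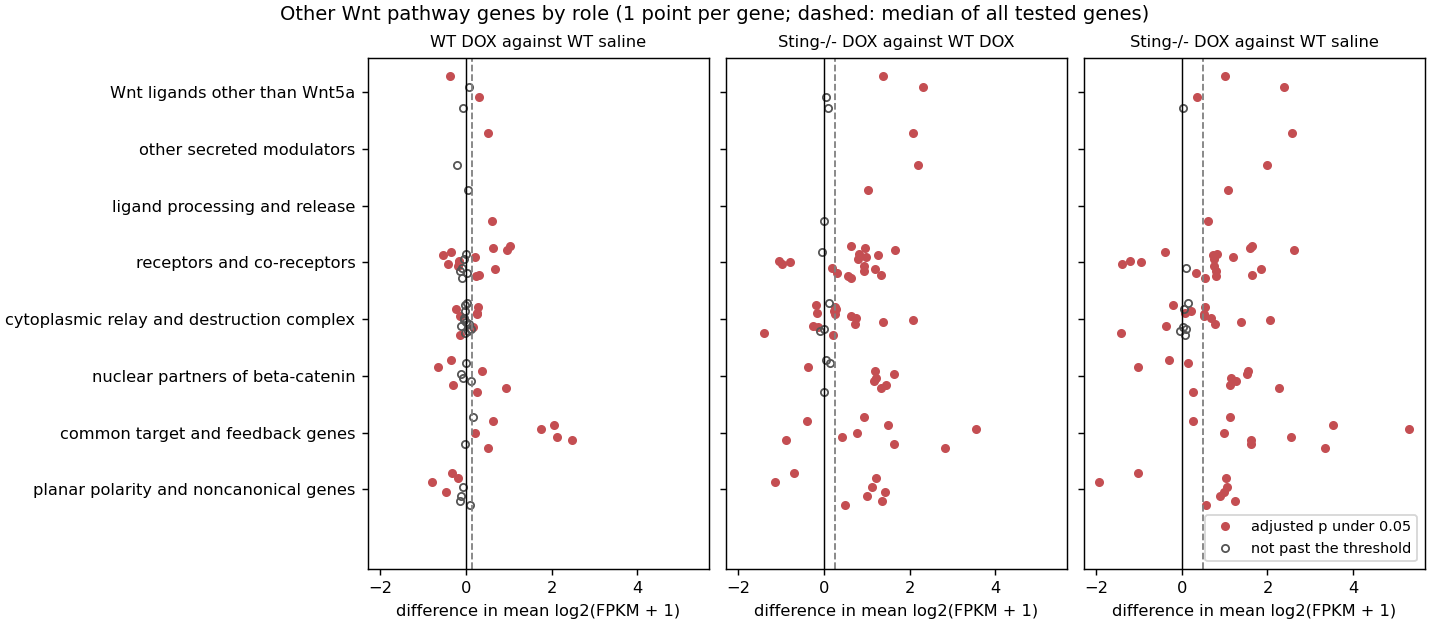
Difference in mean log2(FPKM + 1) of the 72 tested pathway genes outside the 9, by role and comparison; each point is a gene, filled where the limma adjusted p is under 0.05, and the dashed line is the median of all tested genes. The points spread to both sides of 0 in WT DOX against WT saline (24 rose, 17 fell) and lie mostly to the right in Sting-/- DOX (49 rose and 13 fell against WT DOX, 6 of the rises being genes that passed the filter only through Sting-/- DOX).

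Markers of several cell types were, like the Sfrp and Dkk genes, higher in Sting-/- DOX than in WT DOX, whereas their change in WT DOX against WT saline differed by list. In bulk tissue, fewer cells of a type and less RNA per cell cannot be told apart. Counts of markers without overlap stand beside 48.7% higher and 24.4% lower of all 16873 genes in Sting-/- DOX against WT DOX. In WT DOX against WT saline these shares were 39.5% and 19.8%. The 10 fibroblast markers summed to 591 to 601 FPKM in WT saline, 1112 to 1146 in WT DOX and, in Sting-/- DOX, 6725 to 7084, and 9 of 10 were higher without overlap in Sting-/- DOX than in WT DOX. Their sum was 6.04 times that of WT DOX, led by Col1a1 at 1942 to 2059 FPKM and Col3a1 at 1705 to 1814 in Sting-/- DOX, while the receptor gene Pdgfra had a ratio of 0.943. The 6 activated fibroblast markers summed to 109 to 147, 335 to 348 and 2178 to 2351 FPKM, a ratio of 6.58 between the DOX groups, with all 6 higher; Postn was at 1368 to 1503 and Acta2 at 388.6 to 415.5 FPKM in Sting-/- DOX. The ratios of Sfrp2, Dkk3, Dkk2 and Sfrp1 between the DOX groups, 37.9, 22.3, 18.3 and 14.4, were above those of both sums, and that of Frzb, 6.35, lay between them. Single markers ran from 0.943 to 15.8 in the fibroblast list and, from Tnc to Cthrc1, from 1.31 to 19.6 in the activated list. Cthrc1 was thus above Dkk2 and Sfrp1, and Col1a1, at 15.8, above Sfrp1.

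The 8 cartilage and tendon markers in the files summed to 3.31 to 5.15, 6.74 to 8.98 and 204.6 to 215.2 FPKM, with 7 of 8 higher in Sting-/- DOX than in WT DOX and a ratio of 26.7; Comp and Fmod were highest at 97.07 to 102.2 and 69.48 to 71.66 FPKM, and Matn1 stayed under 1 FPKM in all libraries. The 10 epicardial and mesothelial markers summed to 8.02 to 10.8, 51.2 to 54.3 and 118.1 to 122.8 FPKM. In WT DOX against WT saline 4 of 10 were higher and 2 lower, near the 39.5% and 19.8% of all genes. The rise of the sum there was mostly Aldh1a2, at 2.23 to 2.93 FPKM in WT saline and 40.41 to 46.26 in WT DOX. In Sting-/- DOX 9 of 10 were higher than in WT DOX, with Msln at 25.04 to 28.24 FPKM against 0.22 to 0.40. Aldh1a2, the exception, was at 13.52 to 13.82 FPKM in Sting-/- DOX. The 9 endothelial markers, led by Fabp4 and Egfl7, summed to 1373 to 1482, 1179 to 1314 and 5888 to 6291 FPKM. In WT DOX against WT saline 3 of them were higher and 5 lower, beside 39.5% and 19.8% of all genes. Between the DOX groups all 9 were higher in Sting-/- DOX, and the ratio of sums was 4.84. Smooth muscle and pericyte markers, led by Tagln and Rgs5, summed to 349.3 to 360.2, 225.6 to 252.2 and 620.7 to 653.2 FPKM, with 7 of 9 higher in Sting-/- DOX than in WT DOX. Abcc9 was lower, at 8.79 to 9.44 against 28.44 to 28.76 FPKM, and Kcnj8 overlapped. Most of the rise in the sum was Tagln, at 331.5 to 350 against 27.27 to 33.03 FPKM. Compared with WT saline, 5 of the 9 were higher in Sting-/- DOX and 4 lower, beside 56.4% and 21.2% of all genes.

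Leukocyte markers, led by Lyz2 and Cd68, summed to 220.2 to 259.7, 840.3 to 947.3 and 1404 to 1442 FPKM, with 8 of 8 higher in WT DOX than in WT saline and, in Sting-/- DOX against WT DOX, 4 of 8 higher and 2 lower: Itgam at 8.86 to 10.51 against 28.91 to 32.39 FPKM and Ptprc at 12.88 to 14.47 against 19.10 to 20.02. The 10 cardiomyocyte markers, led by Mb and Myl2, summed to 56160 to 58430, 36230 to 37440 and 8702 to 9299 FPKM, with 10 of 10 lower in Sting-/- DOX than in WT DOX at a ratio of 0.246. FPKM is a share of the library, so the level of these abundant transcripts enters that of every other gene. Skeletal muscle markers, of which Ckm and Acta1 are also heart genes, had a sum of 1154 to 1291 FPKM in WT DOX and, in Sting-/- DOX, 379.2 to 422.1, nearly all of it from these 2 genes. Of the 6 markers 3 were higher and 2 lower in Sting-/- DOX, and the muscle genes Tnnt3 and Pvalb were at 7.01 to 8.39 and 2.47 to 3.18 FPKM against 1.46 to 2.39 and 0.24 to 0.58. Adipocyte markers, led by Adipoq and Retn, summed to 0.23 to 0.46, 4.19 to 19.32 and 16.5 to 17.47 FPKM. Lung epithelium markers reached 5.24 FPKM at most, mainly Ager, and liver markers 0.82 FPKM at most, mainly Ttr. The part of these cell types, and of the abundant muscle transcripts, in the levels of the 9 genes was not tested.

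**Figure D5:**
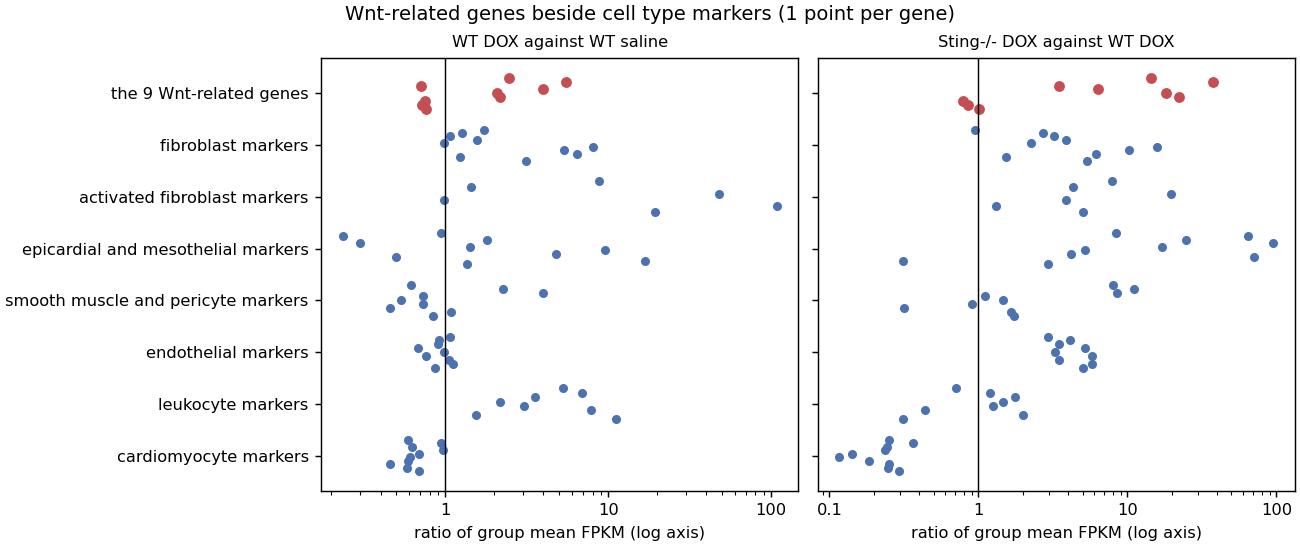
Ratio of group mean FPKM, on a log axis, for the 9 Wnt-related genes (top row) and for genes of 7 marker lists; each point is a gene, and ratios to the right of 1 are higher in the first-named group. Between the DOX groups the Sfrp and Dkk genes lie from 3.49 to 37.9, fibroblast markers from 0.943 to 15.8 and cardiomyocyte markers all under 1.

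The genes with the nearest pattern were found by the root mean square difference over the 9 libraries, in log2(FPKM + 1) after subtraction of the WT saline mean. For Sfrp1 they were the actin-binding gene Tagln (0.20), the microfibril gene Mfap2 (0.25) and the thrombospondin gene Thbs4 (0.28). Frzb was closest to C1qtnf6 (0.094), the proteoglycan gene Bgn (0.10) and the microfibril gene Mfap5 (0.15), and Dkk3 to Ddah1 (0.20), Clec11a (0.22) and Wfdc18 (0.25). Sfrp2 had no near match: its closest genes were the matrix genes Ltbp2 (0.60) and Col1a1 (0.69) and the growth factor gene Ptn (0.73). Genes whose differences are small on this scale, whether for small changes or, as with Dkk2 and Sfrp5, because 1 is added to values of about 1 or 2 FPKM, have many near matches. The closest were Cst6, Mmp24 and Shld3 for Sfrp5, Dvl1, Capn15 and Cdc42ep2 for Dkk2, Fundc1, Phospho2 and Stk35 for Wnt5a, Erlec1, Ginm1 and Miga2 for Wif1, and H2-Ke6, Zfp128 and Vezf1 for Axin2, all within 0.064 to 0.080. For Dkk2 these are no match in ratio: Dvl1 went from a mean of 16.7 to 45.0 FPKM between the DOX groups, whereas Dkk2 had a ratio of 18.3. Tagln, Col1a1 and Mfap5 are among the smooth muscle and fibroblast markers above.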

How the data were processed

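RNA-seq of mouse heart was analysed in 3 groups of 3 libraries, grouped and numbered by the sample titles. The authors deposited a file per library with FPKM per Entrez gene ID, printed to 2 decimals, for the same 16873 genes; the submitters' processing notes list build GRCm39 and the programs RSEM 1.2.12, HISAT2 2.0.4 and Bowtie2 2.2.5, roles not given. FPKM holds no counts, so no count model was used, and it is relative to each library's total. IDs were matched to symbols through RefSeq (GRCm38.p6; 16825 matched, 48 did not). Whole-read steps in low values gave only approximate depths.

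Values were fitted as log2(FPKM + 1) with limma 3.58.1 in R 4.3.3 (all 9 libraries, trended prior, 6 residual degrees of freedom, two-sided, Benjamini-Hochberg) on the 12485 genes averaging 1 FPKM or more; the script was tested on simulated data. With 3 against 3, the smallest p an exact permutation test allows is 0.1. Python 3.11.15, pandas 2.3.3, numpy 2.4.6 and matplotlib 3.10.9 did the rest. The 9 genes, the role lists and the marker lists were chosen with earlier results of these data known. Named besides the 9 are, per role list and comparison, at most the 3 largest rises and 3 largest falls past the threshold without group overlap, per marker list the 2 highest, and per gene the 3 nearest patterns, predicted genes left out; other names were chosen after their values were seen. A marker list is not reported here. Alternatives covered pseudocount, filter, scaling, variance trend, samples fitted, a replicate block and leaving out each library. Added after seeing the data was a count of only those tested genes that also averaged 1 FPKM or more in the wild-type libraries.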

Additional observations from a re-analysis of the deposited data

How the results depend on the processing

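Of the described differences of the 9 genes, signs turned for Axin2 alone, in Sting-/- DOX against WT DOX: 0.012 as reported, -0.139 with median-ratio scaling, -0.271 with quantile normalization and -0.036 to 0.096 when a library was left out. Counts of pathway genes outside the 9 moved by over 1.5 times in WT DOX against WT saline, where 14 rose and 37 fell with median ratios and 13 and 43 with quantiles; in Sting-/- DOX against WT DOX, where 21 fell under either; and in Sting-/- DOX against WT saline, where 24 and 25 fell. With a mean of at least 5 FPKM, which tests fewer genes, 26 and 29 rose in the last 2 comparisons. A further count, chosen after seeing the data, took only tested genes that also averaged 1 FPKM or more in the wild-type libraries. There 43 rose and 13 fell, and then 47 and 11, with 9975 and 10575 calls over all genes. Without any single library the counts were 21 to 24 rises and 12 to 17 falls, 48 to 50 and 12 to 13, and 50 to 53 and 11, and over all genes 7726 to 8328, 10147 to 10478 and 10898 to 11094 calls. Same-numbered libraries did not deviate together (correlations of -0.0323 to 0.104), which does not settle whether the numbers pair samples. With a replicate block, 25 rose and 18 fell, 50 and 13, and 53 and 11, and 8247, 10449 and 11104 of all genes were called. In the Sting-/- DOX comparisons the scaling, leave-out and block counts include the genes that passed the filter only through Sting-/- DOX. The rises of those genes followed from the filter. Depth limits Dkk2 in the wild-type groups, at 1 to 6 fragments. Values for genes under 5 FPKM could not be given with that filter.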

Other observations

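Pathway genes with a mean under 1 FPKM were not tested, and the following were chosen after their values were seen. Sfrp4, an antagonist close in kind to Sfrp1 and Sfrp2, stood at 1.98 to 3.39 FPKM in Sting-/- DOX, against 0 to 0.15 in WT saline and 0.05 to 0.17 in WT DOX. In the order WT saline, WT DOX and Sting-/- DOX, the R-spondin gene Rspo3 was at 0.04 to 0.08, 0 to 0.10 and 0.46 to 1.10 FPKM, and its receptor gene Lgr5 at 0 to 0.04, 0 to 0.04 and 0.69 to 0.96. Wnt2, a ligand of the developing heart and lung, was at 0 to 0.09, 0.07 to 0.26 and 1.37 to 1.52 FPKM. The polarity gene Celsr1 went the other way, at 1.52 to 1.58, 0.93 to 1.03 and 0.31 to 0.39 FPKM, with no overlap of groups.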
